A study of Mus musculus with 10 samples.

Results

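The respiratory chain genes of the nucleus were examined here for occupancy by XBP-1 in mouse liver. They were chosen by symbol alone: protein-coding nuclear genes named Ndufa, Ndufb, Ndufc, Ndufs, Ndufv, Uqcr, Cox4 to Cox8 or Atp5, without the Ndufaf assembly factors, plus Sdha, Sdhb, Sdhc, Sdhd and Cyc1. This gave 89 of 21887 nuclear protein-coding genes annotated by RefSeq on GRCm38.p6, which underlies mm10. By enzyme there were 41 genes of complex I, 4 of complex II, 9 of complex III, 18 of complex IV and 17 of ATP synthase. The study mapped XBP-1 by chromatin immunoprecipitation and sequencing (ChIP-seq) to look for its targets in liver metabolism. It holds 8 immunoprecipitated libraries, 2 from each of 4 groups, and 2 input libraries. All animals carried the C57BL/6J strain label, and the antibody was raised against Xbp-1s, the spliced and active form. Fed and Fasted were wild-type mice with food or without it. WT were the control mice of the knockout series, and Ern1-LKO mice carried a liver-specific knockout of Ern1. The labels state neither the length of the fast, nor whether WT and Ern1-LKO mice were fed, nor age, nor the Cre line behind the knockout. They also do not say that libraries came from separate animals, so each p-value reflects the spread among these libraries alone, which may be technical. Peak lists carry no expression, so neither liver markers nor the loss of Ern1 could be checked.

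Complex I (NADH dehydrogenase) and complex II (succinate dehydrogenase) feed electrons into the mitochondrial inner membrane, complex III passes them to cytochrome c, and complex IV (cytochrome c oxidase) hands them to oxygen. The proton gradient built on the way drives ATP synthase, and in liver this ATP pays for gluconeogenesis, urea synthesis and protein secretion. XBP-1 drives transcription when unfolded proteins burden the endoplasmic reticulum (ER): the ER enzyme encoded by Ern1 splices Xbp1 mRNA, and the product activates genes of ER folding, translocation and glycosylation. Promoters of respiratory chain genes are known instead for sites of NRF1, of the ETS factor GABP and of YY1.

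A start site was listed in the RefSeq promoter table of GRCm38.p6 for 71 of the 89 genes. Start-site peaks are described for these 71, so 6 of their promoters are printed, each running from 250 bases before the start to 50 after it, 5′ to 3′ on the coding strand. Cox6a1, Cox5a and Atp5j are shown because they had a start-site peak in the most libraries, 7 of 8. Atp5g3 had the highest-ranked start-site peak of any member in both Fasted lists, Uqcrfs1 carries a cAMP response element, and Cox7b had no start-site peak in any library. Capitals mark letters of any of the 8 motifs searched on both strands, which are spelled out with the motif counts. The windows are Cox6a1 chr5:115348909-115349208 (minus strand), Cox5a chr9:57520982-57521281 (plus), Atp5j chr16:84835576-84835875 (minus), Atp5g3 chr2:73911277-73911576 (minus), Uqcrfs1 chr13:30545267-30545566 (minus) and Cox7b chrX:106015450-106015749 (plus).
Cox6a1: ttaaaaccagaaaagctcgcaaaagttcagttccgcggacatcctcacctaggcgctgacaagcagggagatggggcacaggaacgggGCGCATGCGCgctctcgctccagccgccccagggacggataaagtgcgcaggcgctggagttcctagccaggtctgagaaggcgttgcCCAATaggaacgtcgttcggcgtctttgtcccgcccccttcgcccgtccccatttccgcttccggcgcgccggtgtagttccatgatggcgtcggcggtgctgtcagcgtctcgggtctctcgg
Cox5a: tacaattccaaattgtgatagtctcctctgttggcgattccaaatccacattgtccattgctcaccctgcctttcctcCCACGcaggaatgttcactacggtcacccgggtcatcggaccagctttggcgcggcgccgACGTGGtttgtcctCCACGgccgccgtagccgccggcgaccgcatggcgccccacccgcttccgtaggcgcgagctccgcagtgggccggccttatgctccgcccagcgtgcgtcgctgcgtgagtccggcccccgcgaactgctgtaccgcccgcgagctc
Atp5j: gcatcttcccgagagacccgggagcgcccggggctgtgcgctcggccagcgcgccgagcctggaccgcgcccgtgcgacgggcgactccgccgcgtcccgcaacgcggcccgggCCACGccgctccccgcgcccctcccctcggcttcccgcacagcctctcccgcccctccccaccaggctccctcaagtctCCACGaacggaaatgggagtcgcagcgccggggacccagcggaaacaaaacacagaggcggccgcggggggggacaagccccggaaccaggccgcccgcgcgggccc
Atp5g3: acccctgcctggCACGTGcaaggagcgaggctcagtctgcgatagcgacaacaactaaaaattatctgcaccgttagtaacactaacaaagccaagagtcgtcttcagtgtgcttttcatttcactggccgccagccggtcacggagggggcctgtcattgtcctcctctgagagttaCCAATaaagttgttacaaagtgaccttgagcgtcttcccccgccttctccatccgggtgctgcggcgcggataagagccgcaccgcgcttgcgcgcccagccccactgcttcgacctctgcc
Uqcrfs1: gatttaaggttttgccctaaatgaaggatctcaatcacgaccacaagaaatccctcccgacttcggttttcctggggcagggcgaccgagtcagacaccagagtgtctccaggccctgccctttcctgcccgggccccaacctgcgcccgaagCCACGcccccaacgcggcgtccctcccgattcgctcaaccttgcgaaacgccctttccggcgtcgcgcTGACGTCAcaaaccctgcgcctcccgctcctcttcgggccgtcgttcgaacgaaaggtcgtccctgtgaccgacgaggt
Cox7b: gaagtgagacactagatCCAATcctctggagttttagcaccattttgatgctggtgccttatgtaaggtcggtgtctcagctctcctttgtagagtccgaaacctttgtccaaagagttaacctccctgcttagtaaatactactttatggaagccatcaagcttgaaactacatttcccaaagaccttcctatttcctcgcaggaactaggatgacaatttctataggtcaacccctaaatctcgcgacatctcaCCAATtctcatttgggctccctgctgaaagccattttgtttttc

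The 8 peak lists differed widely in length, from 698 peaks in Ern1-LKO replicate 1 to 82975 in Fed replicate 1. Replicates differed as much as groups: 82975 and 47357 peaks in Fed, 53973 and 19237 in the Fasted lists, 6258 and 30327 in the WT lists, 698 and 30796 in the Ern1-LKO lists. The libraries held between 4.34M and 17.4M kept tags (M, 1e6), and list length did not follow them, since Ern1-LKO replicate 1 had 12M and Ern1-LKO replicate 2 had 4.34M. The share of duplicate tags in the 8 libraries ran from 0.09 (WT replicate 1) to 0.47 (Ern1-LKO replicate 2). Fed and Fasted were called against 1 input library and WT and Ern1-LKO against the other, so groups were compared only within these pairs. Fasted replicate 2, WT replicate 1 and Ern1-LKO replicate 1 had the shorter list of their group, and the comparisons are given with and without each of them.

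XBP-1 signal was called near most respiratory chain genes in the 5 longer lists, from 59 to 87 of the 89, and near 2 to 29 in the 3 shorter ones. A gene was counted when a peak summit lay in its span or within 5 kb of it. In the Fed libraries 87 and 82 of the 89 genes were counted, against 76.1% and 71.2% of all nuclear protein-coding genes. The members' own percentages were 97.8% and 92.1%. In Fasted replicate 1, 82 genes (92.1%) had a peak against 73.1% of all genes, but in Fasted replicate 2 only 29 (32.6%) against 43.6%. The WT libraries held 23 (25.8%, all genes 19.6%) and 77 (86.5%, all genes 65%). The Ern1-LKO libraries held 2 (2.25%, all genes 3.58%) and 59 (66.3%, all genes 62.4%). The members thus lay above the background share in 6 libraries and below it in Fasted replicate 2 and Ern1-LKO replicate 1. The members and other genes were not tested against each other: the members are short (median 7131 bp against 17169 bp) and crowded, with the end of another gene in the window of 71 of the 89 (79.8%, all genes 47.5%).

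At their own start sites the members lay above all genes with a listed start in 5 libraries, in WT replicate 1 by less than 1 point, and below them in Fasted replicate 2 and both Ern1-LKO libraries. A summit lay within 1 kb of a start in 65 and 52 of the 71 genes in Fed, where 63.9% and 57% of all genes with a listed start were called. In the members this was 91.5% and 73.2%. Fasted replicate 1 held 53 (74.6%, all genes 59.2%) and Fasted replicate 2 held 7 (9.86%, all genes 27%). The counts were 9 (12.7%, all genes 12%) and 51 (71.8%, all genes 53.4%) in the WT lists, and 0 (all genes 2.83%) and 32 (45.1%, all genes 48.5%) in the Ern1-LKO lists. So 67 of the 71 genes (94.4%) had a start-site summit in some library, against 68.0% of all genes, but none had it in all 8. The members lay above all genes at 4 or more libraries, with 47 (66.2%, all genes 52.6%), and below them at 5 or more, with 30 (42.3%, all genes 46.1%).

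**Figure D1:**
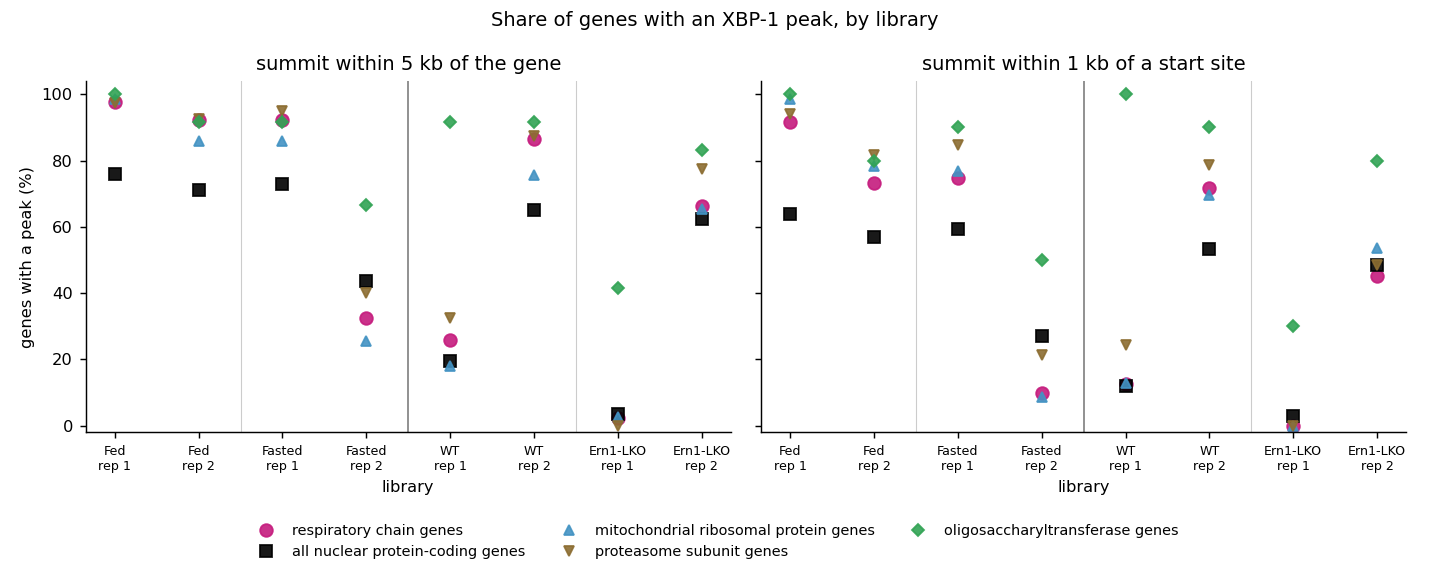
Percent of genes with an XBP-1 peak (vertical axis) in each of the 8 libraries (horizontal axis), with summits within 5 kb of the gene at left and within 1 kb of a start site at right, for respiratory chain genes, all nuclear protein-coding genes and 3 other gene lists. The respiratory chain genes sit above all genes in both Fed libraries, Fasted replicate 1 and WT replicate 2, and below them in Fasted replicate 2, while the oligosaccharyltransferase genes stay at 50% or more at start sites in every library but Ern1-LKO replicate 1.

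The start-site peaks of the members had lower median fold enrichments than those of all genes in 6 of the 7 lists that held any. Fold enrichment, the authors' ratio of tag signal at the summit to the local background, had a median over members of 5.30 and 7.22 in the Fed lists, against 5.59 and 8.33 over all genes with such a peak. The medians were 8.45 against 10.4 in Fasted replicate 1, 6.34 against 8.32 in WT replicate 2 and 7.97 against 10.2 in Ern1-LKO replicate 2. In WT replicate 1 the 9 members had a median of 4.69 against 5.04, and in Fasted replicate 2 the 7 had 7.51 against 6.76. By rank within the list, members exceeded all genes in 3 lists: the median percentile was 72.5 against 52.9 in Fasted replicate 2, 64.8 against 60.7 in WT replicate 1 and 90.6 against 90.4 in Fed replicate 1. Among the 698 strongest peaks of each list, the length of the shortest, 0 to 2 of the 71 members had a start-site peak, or at most 2.82%, where all genes ranged from 1.65% to 3.33%, so the members were near the background there. By the 5 kb window the 698 strongest peaks of Ern1-LKO replicate 2 reached 6 members (6.74%, all genes 3.83%), 4 of them without a start-site peak among those. The members with a start-site peak among the 698 strongest were Atp5g3 in 3 lists, Atp5j in 2, and Atp5d, Atp5h, Cox8a and Cox6a1 in 1 each. Deeper in the lists the order changed: among 19237 peaks, 56 and 35 members had a start-site peak in Fed (78.9% and 49.3%, all genes 48.8% and 44.9%). At that depth 42 (59.2%, all genes 45.8%) had one in Fasted replicate 1, 42 (59.2%, all genes 47.3%) in WT replicate 2, with 27 (38.0%, all genes 43.1%) in Ern1-LKO replicate 2. Fasted replicate 2, whose whole list this is, had 7 (9.86%).

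**Figure D2:**
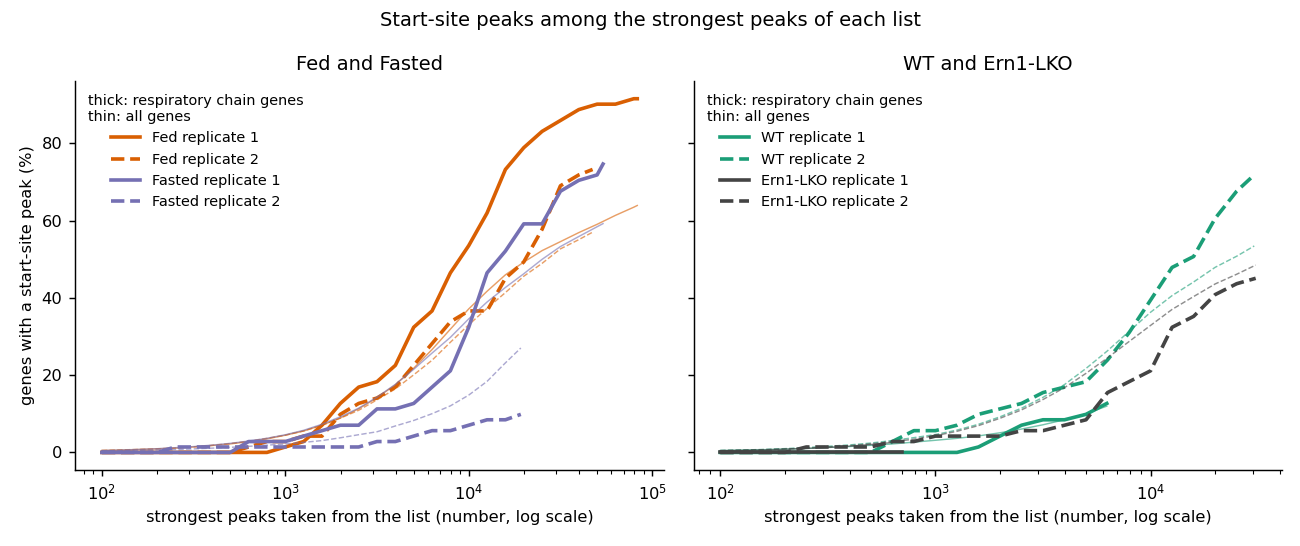
Percent of genes with a start-site peak (vertical axis) among the strongest peaks of each list (number on a logarithmic horizontal axis, ranked by the authors' −log10 p), with 1 line per library, thick for respiratory chain genes and thin for all genes. At 698 peaks no library reaches more than 2.82% of members, and at 19237 peaks Fed replicate 1 reaches 78.9% and Fasted replicate 2 reaches 9.86%.

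The summits sat just inside the genes. Where a member had a start-site peak, the median summit lay 144 and 123 bp downstream of the start in Fed, 140 and 157 bp in Fasted, 106 and 146 bp in WT and 177 bp in Ern1-LKO replicate 2. Between 66.7% and 88.5% of the summits in these 7 lists were within 300 bp of the start. For the 47 genes with a start-site summit in 4 or more libraries, the summits of the different libraries spanned a median of 114 bp, and 32 of the 47 had all summits within 200 bp of each other. In 37 of the 47 the median summit was downstream of the start. Most of these summits therefore fell beyond the printed windows, which end 50 bases after the start.

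**Figure D3:**
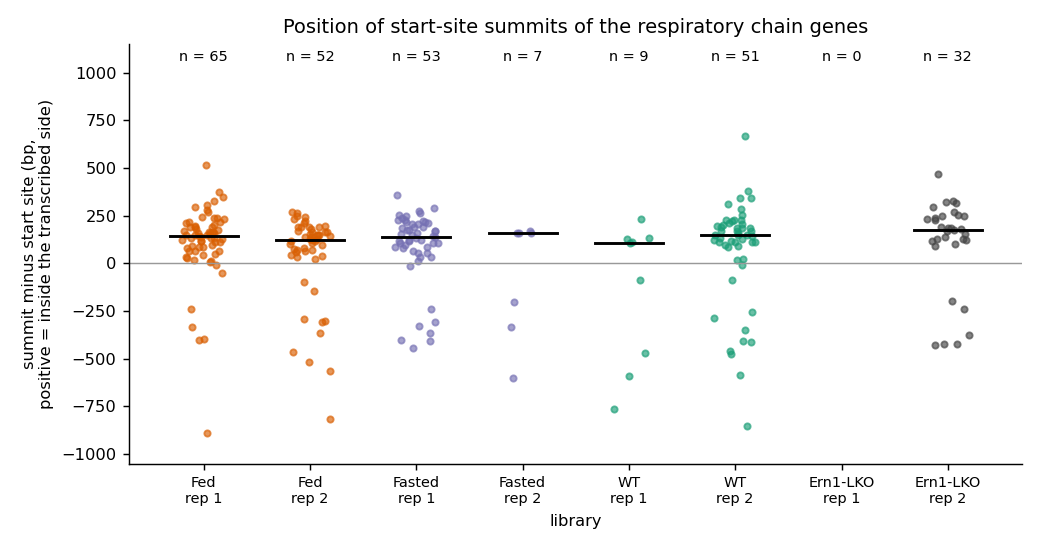
Distance in bp from the nearest listed start site to the summit (vertical axis, positive on the transcribed side) for each member with a start-site peak, by library (horizontal axis), with a bar at the median. Medians lie between 106 and 177 bp in the 7 lists that hold any, and the 0 of Ern1-LKO replicate 1 is shown as an empty column.

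Complex I, the largest of the enzymes, lay above the share of all genes at start sites in both Fed libraries, Fasted replicate 1 and WT replicate 2, and below it in the other 4. Of its 35 genes with a listed start, 34 and 27 had a start-site peak in Fed, 28 and 1 in the Fasted lists, 1 and 27 in the WT lists, and 0 and 14 in the Ern1-LKO lists. In Ern1-LKO replicate 2 this was 40% against 48.5% of all genes, and in Fasted replicate 2 it was 2.86% against 27%. The single gene in Fasted replicate 2 was Ndufa13, also known as a cell death regulator, and the single gene in WT replicate 1 was Ndufa12, a small accessory subunit. Ndufa12 had fold enrichments of 8.32 and 7.24 in Fed, 7.20 in Fasted replicate 1, 4.94 and 10.2 in the WT lists and 8.26 in Ern1-LKO replicate 2. It had no start-site peak in Fasted replicate 2 or Ern1-LKO replicate 1, so both groups of each comparison held it in at least 1 library. The core subunits, among them those with the flavin and the iron-sulfur clusters, had 5 genes with a listed start. Of these, 5 and 4 had a start-site peak in Fed (all genes 63.9% and 57%) and 4 and 0 in the Fasted lists (59.2% and 27%). The WT lists held 0 and 3 (all genes 12% and 53.4%), and the Ern1-LKO lists 0 and 1 (2.83% and 48.5%).

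Complex II has 4 genes and no part encoded in mitochondrial DNA. Sdhb, its iron-sulfur subunit, had a start-site peak with fold enrichments of 7.56 and 10.4 in Fed, 10.05 in Fasted replicate 1, 5.76 in WT replicate 2, with 8.99 in Ern1-LKO replicate 2. Sdha, the flavoprotein subunit, had one at 4.60 and 11.2 in Fed, 7.71 in Fasted replicate 1 and 4.04 in WT replicate 2. Sdhd, a membrane anchor, had one at 5.30, 5.62, 8.09 and 4.70 in the same 4 libraries. In all 4 of them the Sdhd summit was nearer to Timm8b, a neighbouring gene for a mitochondrial import chaperone. Sdhc, the other anchor, had its best window peak at fold enrichments of 5.96 in both Fed libraries, 6.81 in Fasted replicate 1, 6.67 in WT replicate 2, with 3.62 in Ern1-LKO replicate 2. No complex II gene had a peak within 5 kb in WT replicate 1 (all genes 19.6%) or Ern1-LKO replicate 1 (all genes 3.58%). In Fasted replicate 2 (all genes 43.6%) only Sdhb did, at a summit 5617 bp inside the gene. With 4 genes, such counts do not set complex II apart from all genes.

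Complex III had window peaks in 6 of 9 genes in WT replicate 1 (66.7%, all genes 19.6%). It had them in 4 of 9 in Fasted replicate 2 (44.4%, all genes 43.6%) and 1 of 9 in Ern1-LKO replicate 1 (11.1%, all genes 3.58%). Of the 6 in WT replicate 1, only the Uqcrfs1 summit was nearest to the member, and the others were nearest to Mbd3, Lrrc41, Sharpin, Zmat5 and Leap2. The start-site counts of complex III were 4 and 2 of 5 in Fed and 2 and 1 in the Fasted lists. They were 3 and 4 in the WT lists and 0 and 2 in the Ern1-LKO lists. These shares lay above all genes with a listed start in Fed replicate 1 (80% against 63.9%) and both WT libraries (60% against 12%, then 80% against 53.4%). They lay below them in the other libraries, as in Fed replicate 2 (40% against 57%) and Fasted replicate 1 (40% against 59.2%). Uqcrfs1, the Rieske iron-sulfur protein, had start-site peaks in 6 libraries at fold enrichments of 5.54 and 7.20 in Fed, 14.3 in Fasted replicate 1, 2.83 and 13.7 in the WT lists and 9.20 in Ern1-LKO replicate 2. The WT replicate 1 peak was among the weakest of its list, at rank 6082 of 6258. Cyc1, which encodes cytochrome c1, had a best window peak in 7 libraries at 6.26 and 10.5 in Fed, 12.9 and 3.15 in the Fasted lists, 3.70 and 6.41 in the WT lists and 8.55 in Ern1-LKO replicate 2. Of these best peaks, only the Fasted and Ern1-LKO replicate 2 summits were nearest to Cyc1, 200, 135 and 197 bp from its nearer end. The other 4 best peaks were nearest to Sharpin, a gene of ubiquitin signalling more than 4 kb away from Cyc1. Counting all its window peaks, Cyc1 had a summit nearest to itself in 6 libraries.

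Complex IV held 2 of the 3 genes with start-site peaks in 7 libraries. Cox5a, the nuclear-encoded subunit Va at chr9:57517328-57532427, had fold enrichments of 6.21 and 9.99 in Fed, 14.4 and 5.25 in the Fasted lists, 4.60 and 12.5 in the WT lists and 6.75 in Ern1-LKO replicate 2. All 7 summits fell 134 to 239 bp downstream of the listed start, which lies inside this span and not at its end. Cox6a1, the liver form of subunit VIa at chr5:115345652-115348958, had 6.16 and 10.2 in Fed, 13.4 and 7.51 in the Fasted lists, 4.69 and 12.1 in the WT lists and 17.01 in Ern1-LKO replicate 2. Its summits fell 50 to 179 bp downstream, and it ranked 608 of 30796 in Ern1-LKO replicate 2. Cox4i1, the subunit IV form of most tissues, had a peak within 300 bp of a gene end in the same 7 libraries. Its fold enrichments were 9.24 and 13.4 in Fed, 16.3 and 8.73 in the Fasted lists, 3.27 and 14.8 in the WT lists, and 17.8 in Ern1-LKO replicate 2. All 3 genes were thus present in every list but the 698 peaks of Ern1-LKO replicate 1. By the 5 kb window, 3.58% of all genes had a peak in that list, and 13.9% had one in all of the other 7. Over the 13 complex IV genes with a listed start, 9 and 6 had a start-site peak in Fed and 7 and 2 in the Fasted lists. The WT lists had 3 and 5, and the Ern1-LKO lists 0 and 5. The complex IV share lay above all genes with a listed start in Fed replicate 1 (69.2% against 63.9%) and WT replicate 1 (23.1% against 12%). It lay below them in the other libraries, as in Fed replicate 2 (46.2% against 57%) and WT replicate 2 (38.5% against 53.4%).

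ATP synthase had the highest start-site share of the 5 enzymes in Ern1-LKO replicate 2, 10 of 15 genes (66.7%, all genes 48.5%). Complexes I to IV had 35, 3, 5 and 13 genes with a listed start. The other ATP synthase counts were 15 and 14 of 15 in Fed, 13 and 3 in the Fasted lists, 2 and 12 in the WT lists and 0 in Ern1-LKO replicate 1. The share lay below all genes in Fasted replicate 2 (20% against 27%) and Ern1-LKO replicate 1 (0 against 2.83%). It was near them in WT replicate 1 (13.3% against 12%) and above them in the other libraries. Atp5g3, which encodes the c subunit of the membrane rotor at chr2:73908447-73912464, had fold enrichments of 9.62 and 14.6 in Fed, 19.8 and 13.2 in the Fasted lists, 13.2 in WT replicate 2, with 18.1 in Ern1-LKO replicate 2. It ranked 229 of 19237 in Fasted replicate 2. Its 6 summits fell 122 to 170 bp downstream of the listed start, which lies inside this span and not at its end. The 3 c-subunit genes encode the same mature protein and differed here: Atp5g2 had start-site peaks in 6 libraries and Atp5g1 in Fed replicate 1 alone, at 3.13.

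Atp5j, the coupling factor 6 subunit of the stalk at chr16:84827871-84835857, had fold enrichments of 8.18 and 10.3 in Fed, 16.0 and 5.69 in the Fasted lists, 5.24 and 19.3 in the WT lists and 23.9 in Ern1-LKO replicate 2. That last peak ranked 218 of 30796, the highest start-site rank of any member in that list. Its WT replicate 1 summit lay upstream, at -763 bp from the start, and the other 6 lay 116 to 192 bp downstream, so that peak was at another site. The F1 head, which makes ATP, had start-site peaks in 4 of 4 genes in both Fed libraries, Fasted replicate 1 and WT replicate 2. All genes ranged from 53.4% to 63.9% there. It had them in 3 of 4 genes in Ern1-LKO replicate 2 (all genes 48.5%) and in 0 of 4 in the other 3 lists (all genes 2.83% to 27%).

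**Figure D4:**
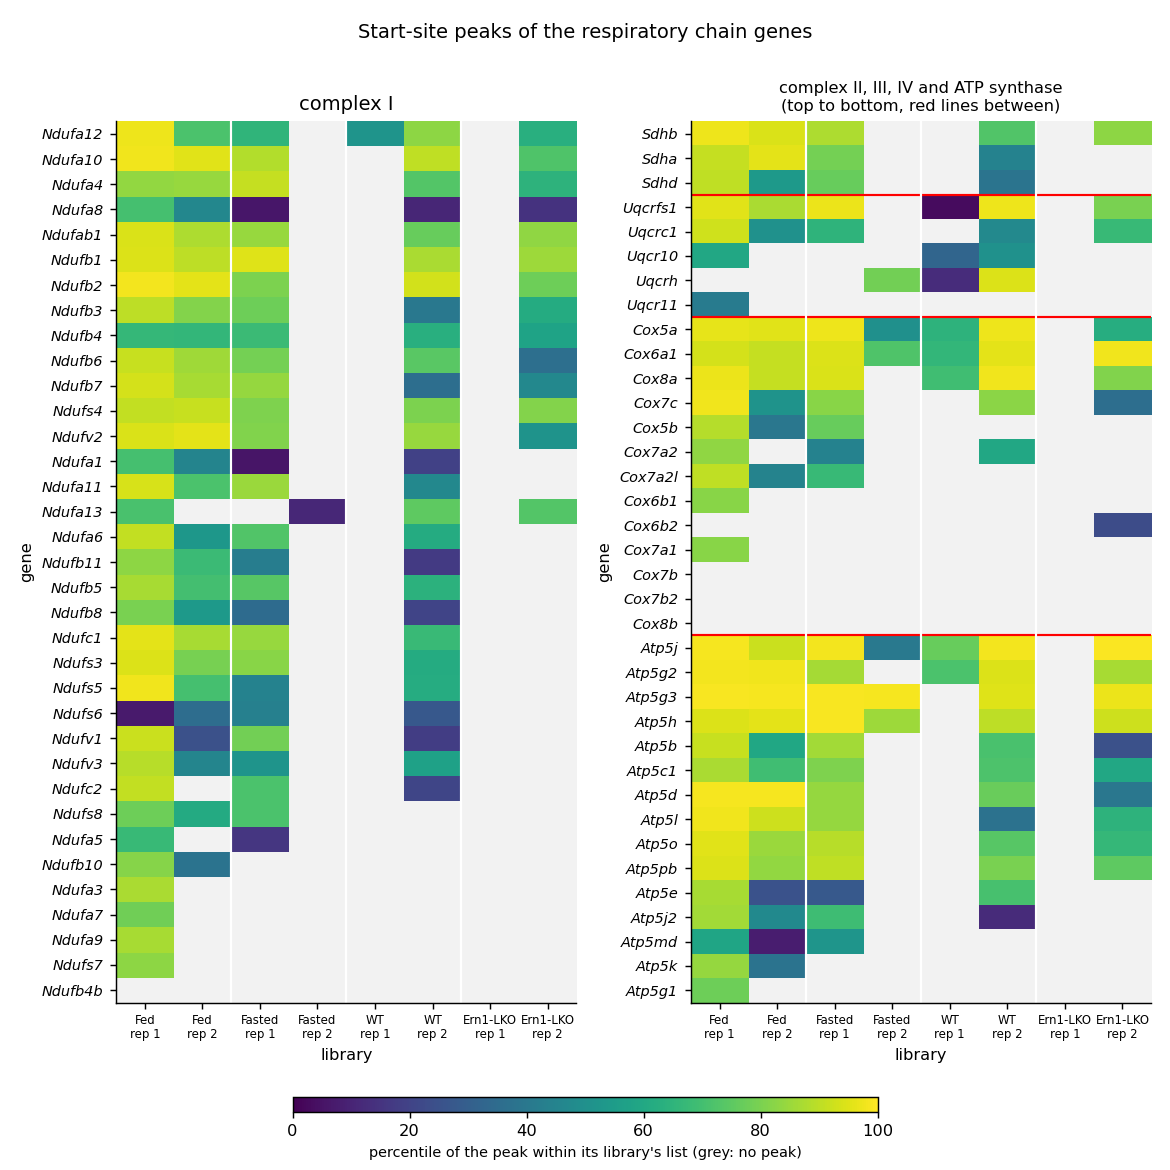
Each of the 71 respiratory chain genes with a listed start (rows, by complex) in each of the 8 libraries (columns), coloured by the percentile of its start-site peak within that library's list, with grey where there was no peak. Colour fills 65 of the rows in Fed replicate 1, 7 in Fasted replicate 2, 9 in WT replicate 1, with 0 in Ern1-LKO replicate 1.

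The 2 members with a window peak in all 8 libraries had their best peak nearest to an end of a neighbouring gene in 7 or more. Of all genes, 2.64% had a window peak in all 8 libraries. Uqcr11, a small complex III subunit, had fold enrichments of 8.54 and 9.42 in Fed, 14.3 and 8.03 in the Fasted lists, 4.29 and 14.7 in the WT lists, and 4.80 and 24.8 in the Ern1-LKO lists. In all 8 libraries the summit was nearest to Mbd3, a subunit of a chromatin remodelling complex, at a median of 162 bp from its end and 3628 bp from Uqcr11. Atp5b, the catalytic beta subunit, had its best window peak nearest to Baz2a, a gene of ribosomal DNA silencing, in 7 of 8 libraries, at 4.53 and 21.7 in the WT lists and 5.26 and 25.7 in the Ern1-LKO lists. Those 7 summits lay far from both genes, at a median of 1564 bp from an end of Baz2a and 2546 bp from one of Atp5b. The best Atp5b window peaks were 5.39 and 7.93 in Fed and 13.2 and 7.06 in the Fasted lists. At its own start Atp5b had a peak in 5 libraries, at 5.39 and 5.60 in Fed, 9.65 in Fasted replicate 1, 6.75 in WT replicate 2, with 4.93 in Ern1-LKO replicate 2. Atp5b thus lacked a start-site peak in Fasted replicate 2, WT replicate 1 and Ern1-LKO replicate 1. Without Ern1-LKO replicate 1, 13 members had a peak in all of the other 7 libraries, as did 13.9% of all genes.

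Several other members with a peak in 7 libraries shared it with a neighbour too. Atp5d, the delta subunit of the F1 head, had its best window peak nearest to Midn in all 7, but also a start-site peak in 5 libraries. A summit nearest to Atp5d itself stood in 6 libraries. Its best window peaks were 17.9 and 18.98 in Fed, 16.7 and 9.41 in the Fasted lists, 9.47 and 30.0 in the WT lists and 27.5 in Ern1-LKO replicate 2. Cox7b, subunit VIIb of complex IV, had 17.3 and 26.5 in Fed, 13.3 and 4.76 in the Fasted lists, 8.93 and 17.7 in the WT lists and 5.90 in Ern1-LKO replicate 2. All 7 Cox7b summits were nearest to Magt1, at a median of 66 bp from its end and 3832 bp from Cox7b, whose own printed start had none. Magt1 encodes a subunit of oligosaccharyltransferase, the ER enzyme of N-glycosylation. Atp5h, subunit d of the stalk, had its best peak nearest to another gene in all 7, and that gene was Kctd2 in 5. Uqcrh, the hinge protein, had it nearest to Lrrc41 in 7, and Ndufa13 to Tssk6 in 7. Over all members, the best window peak was nearest to a member in 60 and to another gene in 27 genes in Fed replicate 1, and 48 and 34 in Fed replicate 2. The split was 52 and 30, then 14 and 15 in the Fasted lists, 10 and 13, then 45 and 32 in the WT lists, and 0 and 2, then 35 and 24 in the Ern1-LKO lists. The count nearest to another gene was the larger in Fasted replicate 2 (15 against 14), WT replicate 1 (13 against 10) and Ern1-LKO replicate 1 (2 against 0). These counts are small and close, and the split was not set against all genes.

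More members had a peak in Fed than in Fasted livers, by less than the spread between the Fasted libraries. The mean share with a window peak was 94.9% ± 3.97 (SD, n = 2) in Fed and 62.4% ± 42.1 (SD, n = 2) in Fasted, a difference of 32.6 percentage points (exact two-sided permutation test, p = 0.667). With 2 libraries against 2 the smallest p this test can give is 0.333. Over all genes the difference was 15.3 points. It rested on Fasted replicate 2: without it the members differed by 2.81 points, and without Fasted replicate 1 by 62.4. Fasted replicate 1 held as many members as Fed replicate 2, 82 in both, so the groups overlapped. With 19237 top peaks from each list the difference was 23.0 points.

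In both Fed libraries 81 members had a window peak (68.8% of all genes did), and in both Fasted libraries 29 (43.2%). Atp5k, subunit e of the membrane part of ATP synthase, was the 1 member found in both Fed lists but in no Fasted list (1.2% of all genes), and 0 members had the reverse (0.0731%). Its fold enrichments were 4.79 at rank 13004 of 82975 and 5.13 at rank 29331 of 47357, with summits 118 and 103 bp downstream of the start. Both Atp5k peaks were weaker than the median start-site peak of the members in their list. Atp5k also had no peak in either WT or Ern1-LKO library. The count was 6 without Fed replicate 2 (5.68% of all genes) and 52 without Fasted replicate 1 (26.5%). When summits nearer to another gene were set aside, it was also 6: Ndufs1, Ndufb10, Ndufa7, Cox6b1, Ndufa13 and Atp5k, where 1.66% of all genes had that pattern.

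More members had a peak in WT than in Ern1-LKO livers, again by less than the spread between replicates, and the direction depended on single libraries. The mean share with a window peak was 56.2% ± 42.9 (SD, n = 2) in the WT lists and 34.3% ± 45.3 (SD, n = 2) in the Ern1-LKO lists, a difference of 21.9 points (exact two-sided permutation test, p = 0.667). Over all genes it was 9.31 points. The sign turned when single libraries were left out: to -8.43 points when WT replicate 2 was dropped and to -10.1 when Ern1-LKO replicate 1 was. It also turned with the 698 strongest peaks of each list, to -0.56 points, where WT held 3 and 4 members and Ern1-LKO held 2 and 6. Without WT replicate 1 the difference was 52.2 points, and without Ern1-LKO replicate 2 it was 53.9.

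In both WT libraries 23 members had a window peak (18.3% of all genes), and in both Ern1-LKO libraries 2 did (3.54%). Uqcr10, Uqcrq and Ndufa2 had one in both WT lists but in no Ern1-LKO list (0.896% of all genes), and 0 members had the reverse (0%). In none of the 3 did both WT summits mark the member. Uqcr10, a small complex III subunit, had its WT replicate 1 summit (4.61) nearest to Zmat5 and its WT replicate 2 summit (5.41) 184 bp inside its own start. Uqcrq, another subunit of that complex, had them nearest to Leap2 (4.91), at 4657 bp from the gene, and to Gdf9 (8.24), at 266 bp. Ndufa2, a complex I accessory subunit, had them nearest to Ik (3.58) and to Ndufa2 itself (10.96). When summits nearer to another gene were set aside, 0 members had the pattern, against 0.95% of all genes. The count was 20 when WT replicate 1 was left out (6.14% of all genes) and 21 without Ern1-LKO replicate 2 (15.5%), and 2 members had the reverse without Ern1-LKO replicate 1 (3.36%).

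Several complex IV subunits have a second form made in heart and muscle, testis or lung. By the median, the forms made in most tissues had window peaks in more libraries, but not in every pair. Counting only summits no nearer to another gene, Cox7b had 0 libraries against 3 for Cox7b2, and Ndufa4 had 1 against 5 for Ndufa4l2. In the other pairs the broadly made form had more by that count. The medians were not set against all genes. The 7 broadly made genes had a window peak in a median of 6 libraries (range 4 to 7), and the 8 restricted ones in a median of 3 (range 1 to 6). Cox4i1 had one in 7 libraries and the lung form Cox4i2 in 4, at 4.70 and 4.72 in Fed, 5.26 in Fasted replicate 1 and 6.34 in Ern1-LKO replicate 2. Cox6a1 had one in 7 libraries and the heart and muscle form Cox6a2 in 3, at 2.83 and 3.72 in Fed and 4.48 in Fasted replicate 1. The first Cox6a2 peak ranked 80036 of 82975. Cox8a, the broad form of subunit VIII, had one in 6 libraries, at 5.68 and 7.90 in Fed, 10.9 in Fasted replicate 1, 5.82 and 15.7 in the WT lists and 9.67 in Ern1-LKO replicate 2. Its muscle form Cox8b had one in 3 libraries and its testis form Cox8c in 2. Cox7a2 had 4 libraries and the muscle form Cox7a1 had 1. Of the 3 best Cox6a2 peaks 2 were nearest to Itgad, and of the 3 best Cox8b peaks 2 were nearest to Psmd13, so these forms had a summit nearest to themselves in 1 library each. Cox6b1 had 5 libraries and the testis form Cox6b2 had 6, but 6 of the latter's best summits were nearest to Fam71e2 and 4 of the former's to Upk1a. Cox7b had 7, all nearest to Magt1, and Cox7b2 had 3, all nearest to Cox7b2 itself. Ndufa4, grouped here by symbol though now regarded as a complex IV subunit, and Ndufa4l2, a form induced by hypoxia, had 5 each. Of the best peaks 4 of 5 were nearest to Phf14 for Ndufa4 and 2 of 5 to Shmt2 for Ndufa4l2, which had a summit nearest to itself in all 5 libraries.

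At the other end of the list stood genes with a peak in few libraries. Ndufb4c alone had no window peak in any library, where 19.4% of all genes had none, and 4 members had none without Fed replicate 1 (22.8% of all genes). Ndufb4b, Atp5g1 and Cox7a1 had a peak in Fed replicate 1 only, at 4.10, 3.13 and 4.85. Ndufb4b and Ndufb4c are named as copies of Ndufb4, and whether reads could be assigned between such copies was not tested. Cox8c and Atp5k had a peak in 2 libraries, and Cox6a2, Cox7b2, Cox8b, Atp5md, Uqcr10, Ndufc2, Cox7a2l and Cox5b in 3. Cox5b, the zinc-binding subunit Vb of complex IV, had 5.15 and 4.87 in Fed and 7.92 in Fasted replicate 1, 212 to 288 bp downstream of its start. Cox7a2l, a factor that joins complexes III and IV into supercomplexes, had 5.52 and 4.66 in Fed and 6.18 in Fasted replicate 1. Both were thus found in Fed and in 1 Fasted library and in no WT or Ern1-LKO library.

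Genes that act beside the respiratory chain also had more start-site peaks in the longer lists, at shares that differed from list to list. Of 37 assembly factors with a listed start, 37 and 31 had a start-site peak in Fed, 31 and 8 in the Fasted lists, 7 and 29 in the WT lists and 1 and 23 in the Ern1-LKO lists. For the 11 regulators of mitochondrial biogenesis the counts were 10 and 10, 10 and 5, 3 and 10, and 1 and 8. For the 12 genes of the mobile carriers, cytochrome c and ubiquinone, they were 12 and 10, 11 and 2, 1 and 10, and 0 and 8. In Fasted replicate 2 the shares were 21.6% for assembly factors, 45.5% for biogenesis regulators and 16.7% for mobile carriers, against 9.86% for the members and 27% for all genes. In Ern1-LKO replicate 2 they were 62.2%, 72.7% and 66.7%, against 45.1% and 48.5%. Each of these lists had its lower count in Fasted replicate 2, WT replicate 1 and Ern1-LKO replicate 1, as the members did. Among lists set beside them, 69 mitochondrial ribosomal protein genes gave 68 and 54 in Fed, 53 and 6 in the Fasted lists, 9 and 48 in the WT lists and 0 and 37 in the Ern1-LKO lists. The 33 proteasome subunit genes gave 31 and 27, 28 and 7, 8 and 26, and 0 and 16. The 10 oligosaccharyltransferase genes, among them Magt1, gave 10 and 8, 9 and 5, 10 and 9, and 3 and 8. The oligosaccharyltransferase genes had more start-site peaks in the short lists, in 5 of 10 genes in Fasted replicate 2 and 10 of 10 in WT replicate 1, where the members had 7 and 9 of 71. No test was made between the lists.

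The promoters were read for letters known from this biology. ACGTG, the core of XBP-1 sites, stood in 18 of the 71 member promoters (25.4%) and in 23.2% of the 17492 promoters in the table. CCACG, a part of the ER stress element, stood in 27 (38.0%, all 40.4%), and the longer unfolded protein response element TGACGTGG in 0 (all 0.823%). The cAMP response element TGACGTCA stood in 4 (5.63%, all 2.54%), and the ETS site CCGGAAGT in 5 (7.04%, all 5.69%). The NRF1 site GCGCATGCG stood in 8 (11.3%, all 2.61%), the YY1 site AAGATGGC in 10 (14.1%, all 3.57%) and CCAAT, the box of NF-Y, in 30 (42.3%, all 42.3%). The letters overlap in part, since TGACGTGG contains ACGTG and the reverse complement of CCACG. A start-site peak in Fed replicate 1 was found in 17 of the 18 members with ACGTG and in 48 of the 53 without it. Over all genes the shares in that library were 79.6% with ACGTG and 59.2% without. The members with it had the lower share in Fed replicate 2 (66.7% against 75.5%), in Fasted replicate 1 (61.1% against 79.2%), in both WT libraries (11.1% against 13.2%, then 61.1% against 75.5%) and in Ern1-LKO replicate 2 (38.9% against 47.2%). Their share was 11.1% against 9.43% in Fasted replicate 2, and 0 in Ern1-LKO replicate 1 either way. Over all genes the share was higher with ACGTG in each of the 8 libraries, as in Fed replicate 2 (73.2% against 52.1%) and Ern1-LKO replicate 2 (63.0% against 44.1%). These differences between promoters with and without the letters were not tested. In the printed windows, Cox5a holds ACGTG and CCACG, Atp5g3 holds ACGTG and CCAAT, Cox6a1 holds the NRF1 site and CCAAT, Uqcrfs1 holds CCACG and the cAMP response element, Atp5j holds CCACG and Cox7b holds CCAAT. Such matches describe letters only, in windows that end before most of the summits.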

How the data were processed

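XBP-1 ChIP-seq in mouse liver was deposited as 12 peak lists, 1 for each of 8 libraries and 4 for the pooled libraries of a group. The submitters' processing notes name mm10, Bowtie2 2.2.5, MACS2 2.2.1, FastQC 0.11.3 and bcl2fastq, with no roles, while the file headers name MACS 2.1.1.20160309. Per the file headers, the authors kept 1 tag per position and called narrow peaks at a q cutoff of 0.05, against an input of 39.67M kept tags (M, 1e6) with 51-bp tags (Fed, Fasted) or 16.51M with 50-bp tags (WT, Ern1-LKO). Each deposited peak has a pileup signal at its summit, a fold enrichment, which is a ratio to local background, and −log10 p and −log10 q values, all of the authors' making. They were used only to describe, rank and filter peaks within a list. The lists give no read counts per gene, so no count test was made.

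Summits were matched to gene spans with 5 kb on each side, and to start sites within 1 kb for 71 members with a promoter in the RefSeq table of GRCm38.p6. The other members, among them Cox4i1, Cyc1, Sdhc and Ndufa2, were matched by their span alone, and individual values of some members are not reported here. A percentile is the share of a list's peaks that a peak outranks by −log10 p. Group means were compared with an exact two-sided permutation test over libraries. Named genes were the 12 members in most libraries, those in both lists of 1 group but no list of its partner, the 12 in fewest with ties, the isoform pairs, and Sdha, Sdhb, Sdhc, Sdhd and Cyc1. Atp5g2, Atp5g3, Uqcrfs1, Ndufa7, Ndufa13, Ndufb10 and Ndufs1 were named after their values were seen. Members, gene lists and motifs were chosen with earlier results of these data known. Alternatives were other windows, stricter limits, equal list lengths, pooled lists, a replicate block and leaving out each library. The summit matching was checked on simulated data. Python 3.11.15, NumPy 2.4.6, pandas 2.3.3, SciPy 1.17.1 and Matplotlib 3.10.9 were used.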

Additional observations from a re-analysis of the deposited data

How the results depend on the processing

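The Fed minus Fasted difference in the share of members with a peak kept its sign under all 13 alternatives and lay between 2.81 and 62.4 points when single libraries were left out. The WT minus Ern1-LKO difference kept its sign under 10 of 13. It was -0.56 points with equal numbers of top peaks, and between -10.1 and 53.9 when single libraries were left out. With the replicate number as a replicate block (exact sign changes, smallest possible p = 0.5), the differences were again 32.6 and 21.9 points with p = 0.5. The labels give no meaning to the replicate numbers. Deviations of same-numbered libraries over 21887 genes had a correlation of 0.0991 between Fed and Fasted and 0.698 between WT and Ern1-LKO. They were taken from the percentile of the best window peak, with a missing peak counted as 0, so they depend on list length. WT replicate 1 and Ern1-LKO replicate 1 were both short, with 6258 and 698 peaks. These correlations therefore cannot tell whether the replicate numbers mark pairs.

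The count in both Fed and neither Fasted library (1) became 3 with summits within 1 kb of a gene end, 2 at start sites, 6 for summits no nearer to another gene, 3 at −log10 q of at least 5, 3 with equal top peaks, 13 in the pooled lists and 1 to 52 with a library left out. The count in both WT but no Ern1-LKO list (3) became 0 for summits no nearer to another gene, 1 at −log10 q of at least 10, 0 at a fold of at least 5, 0 with equal top peaks, 16 in the pooled lists and 3 to 21 with a library left out. The reverse count (0) became 1 with equal top peaks, 4 in the pooled lists and 0 to 2 with a library left out. The count in all 8 libraries (2) became 0 under 6 alternatives: gene ends, start sites, summits no nearer to another gene, −log10 q of at least 10, fold of at least 5 and equal top peaks. It was 2 to 13 with a library left out. The count with no peak (1) became 6 at gene ends, 4 at start sites, 4 for summits no nearer to another gene, 4 and 13 at −log10 q of at least 5 and 10, 9 at a fold of at least 5, 11 with equal top peaks and 1 to 4 with a library left out. Stricter limits and shorter lists leave fewer peaks by construction, and otherwise the cause was not tested. The number of peaks in each list and the 2 libraries per group limit every comparison here.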
